A study of Homo sapiens with 12 samples.

Results

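The ERBB receptors and a set of genes listed as their inhibitors were followed, chosen by name as the drug target and its family. These 9 genes were EGFR, ERBB2, ERBB3, ERBB4, ERRFI1, LRIG1, LRIG3, CBL and CBLB. They are 9 of 62754 gene identifiers in a table of RNA sequencing counts, and all 9 were found. The cells were PC9, a human lung adenocarcinoma line that depends on EGFR, taken here from a subclonal line, and the drug was erlotinib, a small molecule that inhibits the EGFR kinase. The 12 libraries formed 4 groups of 3 cultures. Untreated TDP1 wild-type cells (WT) were the control, the same cells given 1 µM erlotinib for 7 days were the drug-tolerant group (DTC), and those given that dose for 28 days the drug-tolerant expanded group (DTEC). The last group (KO) was untreated and came from KO2, a single line in which TDP1, the gene of tyrosyl-DNA phosphodiesterase 1, had been knocked out. Loss of TDP1 and any other difference between the KO2 and WT lines cannot be told apart. Per the labels, the cultures were split from a shared flask and then grown apart, so p-values measure only the spread between such cultures. All 12 libraries belong to batch 1. No day is given for the untreated groups, so time under the drug and time in culture cannot be told apart.

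ERBB receptors are tyrosine kinases of the cell surface that pair with each other when a ligand binds and then signal through the RAS-ERK and PI3K-AKT routes. Among them ERBB2 binds no known ligand and is the favoured partner, and ERBB3 has a weak kinase but recruits PI3K strongly. The signal is restrained by ERRFI1 (also called MIG6), which binds the kinase domain and is itself induced by receptor signalling. The membrane protein LRIG1 restrains it too, as do the ubiquitin ligases CBL and CBLB, which mark active receptors for breakdown. LRIG3, a relative of LRIG1, is listed with the inhibitors here, and its role was not tested.

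Of the 9 genes, 7 had an entry in the RefSeq promoter table for GRCh38.p14, of which the 250 bases before the start site were read. Sequences are shown for EGFR, ERRFI1 and LRIG3, which had an entry and were all lower after 7 days of erlotinib. They are written 5′ to 3′ on the strand of the gene, with capitals marking the GC box (GGGCGG, or CCGCCC on the other strand). The EGFR window is chr7:55018767-55019016 on the plus strand, the ERRFI1 window chr1:8026310-8026559 on the minus strand, and the LRIG3 window chr12:58920505-58920754 on the minus strand.
EGFR: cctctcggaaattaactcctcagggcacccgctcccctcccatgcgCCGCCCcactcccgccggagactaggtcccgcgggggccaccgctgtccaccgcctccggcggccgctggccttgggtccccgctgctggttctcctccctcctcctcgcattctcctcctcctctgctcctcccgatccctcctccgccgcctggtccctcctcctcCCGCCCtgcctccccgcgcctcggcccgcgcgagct
ERRFI1: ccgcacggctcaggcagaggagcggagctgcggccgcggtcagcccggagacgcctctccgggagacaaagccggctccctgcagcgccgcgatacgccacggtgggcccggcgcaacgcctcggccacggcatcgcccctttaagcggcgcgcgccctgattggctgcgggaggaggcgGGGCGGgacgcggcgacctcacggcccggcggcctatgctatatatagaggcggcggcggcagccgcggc
LRIG3: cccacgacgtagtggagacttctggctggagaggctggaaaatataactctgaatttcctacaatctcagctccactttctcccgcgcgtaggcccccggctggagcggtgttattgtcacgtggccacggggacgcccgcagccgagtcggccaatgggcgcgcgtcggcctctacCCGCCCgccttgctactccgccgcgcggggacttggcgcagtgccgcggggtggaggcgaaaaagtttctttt
The EGFR window was 73.6% G or C and held 2 GC boxes, the ERRFI1 window was 75.2% with 1, and the LRIG3 window was 63.2% with 1. The median over 35116 promoter windows of this length was 58.0%, and 42.6% of them held a GC box. A GC box was present in 6 of the 7 windows, ERBB2 being the one without. The other motifs searched, also on both strands, were the CCAAT box (CCAAT, in 4 of the 7 windows and 32.0% of all), the TATA box (TATAAA, 0 and 10.7%), the forkhead core (TGTTTAC, 0 and 2.98%) and the AP-1 site (TGANTCA, 1 and 6.57%). The last were the ETS core (CCGGAAGT, 1 and 3.42%), the TEAD core (GGAATG, 0 and 11.9%) and the E-box (CACGTG, 1 and 6.34%). None of these letter strings contains another, and a match describes the letters only. For genes with several entries, such as LRIG3 with 2 and CBLB with 5, the start nearest the 5′ end of the GENCODE gene was taken, and which start the cells used was not measured.

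Library totals ran from 25572691 to 38373679 counts. TDP1 itself was at 28.1, 25.1 and 25.8 CPM (counts scaled to a common library size) in WT and at 10.1, 11.3 and 10.98 in KO, a log2 fold change of -1.29 (SE 0.11, adjusted p = 1.3e-05). The part of the gene that was removed is not given in the sources used here, so a gene total checks the label only in part, and TDP1 was also lower in DTC, at 12.7 to 15.7 CPM. DTC replicate 1 differed most from the other libraries of its group, with a median absolute log2 difference of 0.35 against 0.089 to 0.26 in the other 11. Mitochondrial genes took 4.43 to 5.41% of counts in DTC and 1.82 to 2.78% elsewhere. All 8 epithelial markers exceeded 1 CPM in every library, and their summed level was 5070 to 5678 CPM in DTC, against 9463 to 9905 for WT, 8389 to 10662 for DTEC and 10124 to 10872 for KO. Most of that sum was KRT8 and KRT18, and the markers did not all move together, since ELF3 was at 155 to 161 CPM in DTC against 92.3 to 98.0 in WT, and CDH1 and CLDN7 overlapped between these groups. Of 7 fibroblast markers, 6 were under 1 CPM in every library, and the summed level, nearly all COL1A1, was 7.99 to 8.91 CPM for WT, 55.0 to 57.8 for DTC, 11.1 to 14.1 for DTEC and 13.5 to 15.1 for KO. Of 6 leukocyte markers 5 stayed under 1 CPM in every library, TYROBP at 0, with a summed level of 0.169 to 0.687 CPM for WT, 1.96 to 2.56 for DTC, 0.824 to 1.49 for DTEC and 0.0351 to 0.777 for KO. Among 5 endothelial markers PECAM1 and CDH5 were above 1 CPM throughout and KDR and TEK under it, and the sum was 58.5 to 61.4 CPM for WT, 42.3 to 50.2 for DTC, 122 to 142 for DTEC and 75.8 to 77.2 for KO. These markers did not move together either. PECAM1 was at 7.62 to 9.77 CPM in DTC against 28.97 to 35.2 in WT. CDH5 was at 33.2 to 38.0 in DTC against 24.6 to 29.4, and VWF was also higher in DTC. The part of these shifts in the results that follow was not tested. In bulk RNA, fewer cells of a kind and less RNA per cell cannot be told apart.

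After 7 days of erlotinib the RNA of EGFR, ERRFI1, LRIG3 and CBL was lower and that of ERBB2, ERBB3, LRIG1 and CBLB was higher. By 28 days ERBB3 was the most raised receptor and ERRFI1 had moved from below to above its untreated level. Calls required an adjusted p below 0.05 in edgeR's quasi-likelihood test, fitted over 17115 genes with Benjamini-Hochberg adjustment, and all adjusted p-values come from that fit. Of the 9 genes, 8 passed the filter on low counts and ERBB4 did not. In DTC against untreated WT all 8 were called, 4 higher and 4 lower, where 67.3% of all genes were called, 34.0% higher and 33.3% lower. In DTEC against untreated WT 7 were called, 5 higher and 2 lower, against 52.3% of all genes, 26.0% higher and 26.3% lower. In DTEC against DTC 7 were called, 6 higher and 1 lower, against 55.4%, 28.8% higher and 26.6% lower. In KO against untreated WT 2 were called, both higher, against 4.31%, 2.76% higher and 1.55% lower. With 52.3 to 67.3% of all genes called in the comparisons that involve the drug, the counts of called members there are not read as a result about these 9 genes. The median absolute log2 fold change of the 8 genes was 1.22 in DTC, 0.87 in DTEC, 1.03 in DTEC against DTC and 0.36 in KO, beside 0.75, 0.53, 0.54 and 0.18 over all tested genes. LRIG1 passed the filter through the DTC, DTEC and KO libraries rather than those of WT, so these counts and medians describe the genes and support nothing further. The DTC, DTEC and KO comparisons share the same untreated WT libraries and are not independent of each other.

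**Figure D1:**
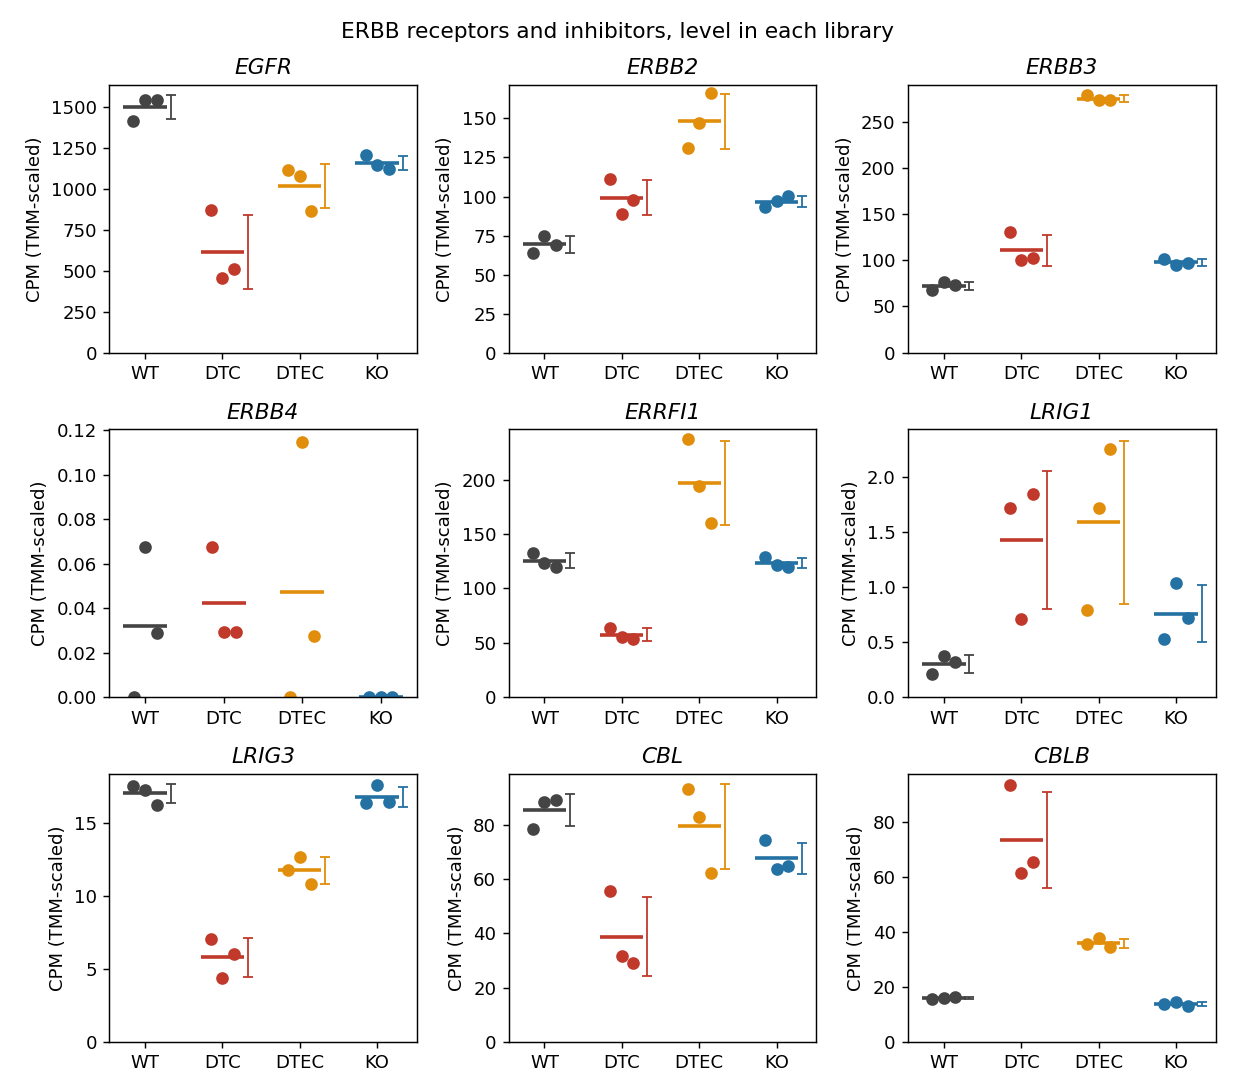
Level of each of the 9 genes in each of the 12 libraries, in TMM-scaled CPM on a linear axis that starts at 0. Points are libraries, horizontal lines group means and error bars 1 SD over 3 libraries (not drawn for ERBB4, which had 0 to 3 counts). EGFR is highest in WT, ERBB3 in DTEC and CBLB in DTC.

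Among the receptors, EGFR (ENSG00000146648, chromosome 7, 55019021 to 55211628, plus strand, GRCh38) was the most abundant in every library and the one whose RNA fell. Its level was 1416, 1544 and 1543 CPM in WT, 870.0, 457 and 510.1 in DTC, 1112, 1079 and 865 in DTEC, and 1205, 1142 and 1120.3 in KO. Every WT library was above every library of the other groups, while DTC and DTEC overlapped because DTC replicate 1 was slightly above DTEC replicate 3. DTC stood at 40.8% of the WT mean, a log2 fold change of -1.29 (SE 0.19, adjusted p = 3.94e-05), or -0.94 with total counts alone. DTEC stood at 67.9% (-0.56, SE 0.19, adjusted p = 0.0236), and DTEC was above DTC by 0.73 (SE 0.19, adjusted p = 0.00482). The DTEC call against WT was lost with total counts alone as the scaling (adjusted p = 0.099), with upper quartile scaling (0.0545), and without DTEC replicate 3 (0.0927), WT replicate 2 (0.07) or WT replicate 3 (0.0689). In KO the difference of -0.38 (SE 0.19) was not called (adjusted p = 0.344). The 3 KO libraries all lay below the 3 WT libraries, which is a description and carries no test. EGFR-AS1, an antisense gene that shares 186 exon bases with EGFR, had 0 counts in all 12 libraries.

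ERBB2 (ENSG00000141736, chromosome 17, 39687914 to 39730426, plus strand) was higher than untreated WT in all 3 other groups. It was at 63.9, 74.8 and 69.2 CPM in WT, 111, 88.8 and 97.7 in DTC, 131, 147 and 166 in DTEC, and 93.2, 96.8 and 100.2 in KO. WT was lowest and DTEC highest with no overlap, and DTC and KO overlapped in between. In DTC the log2 fold change was 0.52 (SE 0.11, adjusted p = 0.000955). It was 1.10 at 28 days (SE 0.11, adjusted p = 2.53e-06), and DTEC exceeded DTC by 0.58 (SE 0.11, adjusted p = 0.000583). With total counts alone the DTC value was 0.87, more than 1.5 times as large. In KO, ERBB2 was higher by 0.48 (SE 0.11, adjusted p = 0.026), a call that was lost without any 1 of the 6 libraries compared, with adjusted p up to 0.152. ERBB2 shares 194 exon bases with PGAP3 and 571 with MIEN1, both on the opposite strand, and whether counting used strand is not given in the sources used here. PGAP3, at 5.05 to 12.5 CPM, was higher as ERBB2 was, by 0.88 in DTC, 1.09 in DTEC and 0.56 in KO. The adjusted p-values of PGAP3 were 6.6e-05, 1.79e-05 and 0.0368. MIEN1 was higher by 0.54 in DTC (adjusted p = 0.05). The part of shared reads in the ERBB2 values was not tested.

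ERBB3 (ENSG00000065361, chromosome 12, 56076799 to 56103505, plus strand) showed the largest rise of the receptors at 28 days. Its level was 67.8, 76.2 and 73.3 CPM in WT, 131, 99.8 and 102 in DTC, 279, 273 and 273 in DTEC, and 102, 94.6 and 96.7 in KO. The 3 DTEC libraries lay close together and far above the rest, WT was lowest, and DTC and KO overlapped. DTEC was 3.80-fold above WT, a log2 fold change of 1.93 (SE 0.11, adjusted p = 1.24e-08). In DTC the change was 0.61 (SE 0.11, adjusted p = 0.000151), or 0.97 with total counts alone, and from DTC to DTEC it was 1.31 (SE 0.11, adjusted p = 2.38e-07). In KO, ERBB3 was higher by 0.43 (SE 0.11, adjusted p = 0.0346), again a call lost without any 1 of the 6 libraries, with adjusted p up to 0.167. ERBB3 shares 31 exon bases with AC034102.2 on the same strand. AC034102.2 was lower in DTC (-2.28, adjusted p = 5.2e-08) and DTEC (-1.34, adjusted p = 1.63e-05), and higher in DTEC than in DTC (0.94, adjusted p = 0.00042).

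ERBB4 (ENSG00000178568, chromosome 2, 211375717 to 212538841, minus strand) was at or under the counting floor in every library. Its counts were 0, 2 and 1 in WT, 2, 1 and 1 in DTC, 0, 3 and 1 in DTEC, and 0 in all 3 KO libraries. A count of 3, the limit that a count of 0 allows, corresponded to 0.0824 to 0.115 CPM in these libraries. A change in ERBB4 at or below about that level was not detectable at this depth, and such limits cover counting error only.

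Because each receptor was read in the same library, their make-up could be compared per kilobase of exon. EGFR took 89.2, 88.7 and 89.3% of the summed receptor level in WT, 73.4, 65.0 and 66.2% in DTC, 67.1, 66.0 and 59.9% in DTEC, and 82.6, 82.1 and 81.4% in KO. No library of another group reached the WT range, and DTC and DTEC overlapped. The ERBB3 share was 5.95% ± 0.10 for WT (SD, n = 3), 17.8% ± 2.28 for DTC, 24.2% ± 1.71 for DTEC and 9.61% ± 0.17 for KO. The ERBB2 share was 4.99% ± 0.20, 14.0% ± 2.30, 11.5% ± 2.24 and 8.34% ± 0.55 in the same order. For each of the 3 shares, and for DTC, DTEC and KO alike, the 2-sided exact permutation test against WT gave p = 0.1, the smallest that 3 libraries against 3 can give. Between DTEC and DTC the exact p was 0.1 for the ERBB3 share, 0.2 for ERBB2 and 0.5 for EGFR. In all, 12 such share comparisons were made, and none can pass a threshold of 0.05 in this design. The total over the receptors, on the CPM per kilobase scale, was 127, 139 and 138 in WT, 94.7, 56.1 and 61.5 in DTC, 132, 131 and 115 in DTEC and 117, 111 and 109.9 in KO. On this scale DTC was lowest throughout, while DTEC overlapped WT, with more ERBB2 and ERBB3 beside less EGFR. The place of DTC depends on the scaling, since TMM factors were 1.15 to 1.16 in DTC and 0.943 to 0.951 in KO. By total counts alone DTC replicate 1 was not below every KO library.

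**Figure D2:**
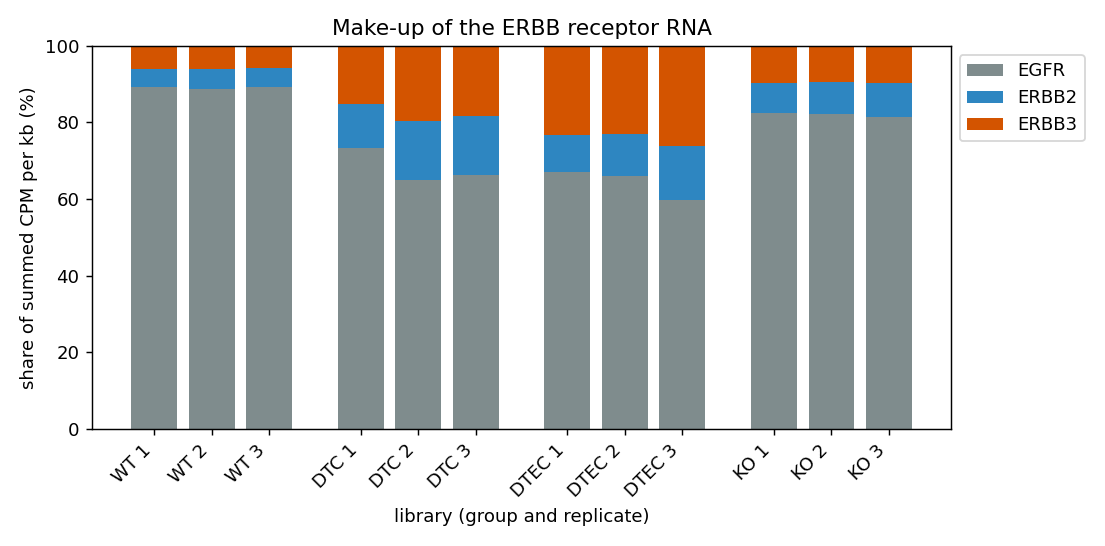
Share of EGFR, ERBB2 and ERBB3 in the summed receptor level (CPM per kilobase of merged exons) in each library, in percent. ERBB4 is included in the sum but too small to be seen, and the EGFR segment is tallest in the 3 WT libraries and shorter in every DTC and DTEC library.

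A ratio taken inside a library does not depend on how libraries are scaled to each other. The log2 ratio of ERBB3 to EGFR was -3.91, -3.87 and -3.93 in WT, -2.27, -1.72 and -1.85 in DTC, -1.52, -1.51 and -1.19 in DTEC, and -3.09, -3.12 and -3.06 in KO. The groups followed each other without overlap, from WT through KO and DTC to DTEC. Against WT the ratio was higher by 1.96 in DTC, 2.49 in DTEC and 0.81 in KO, and DTEC was higher than DTC by 0.54, each with an exact permutation p of 0.1. ERBB2 to EGFR differed from WT by 1.87 in DTC, 1.66 in DTEC and 0.86 in KO, with no overlap with WT, while DTC and DTEC overlapped. ERBB3 to ERBB2 differed little from WT in DTC (0.09) and KO (-0.05), with overlapping groups, and by 0.83 in DTEC, without overlap. A ratio within a library shows unequal change and not which of the genes changed. Separation of groups in ratios, here and below, is described only, since the smallest exact permutation p is 0.1.

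Of the inhibitors, ERRFI1 (ENSG00000116285, chromosome 1, 8004404 to 8026308, minus strand) was the gene that lay below WT in DTC and above it in DTEC. It was at 133, 124 and 119.8 CPM in WT, 63.9, 55.0 and 53.7 in DTC, 237, 194 and 160.4 in DTEC, and 129, 121 and 119.99 in KO. DTC was lowest and DTEC highest without overlap, and KO overlapped WT. DTC was at 45.9% of WT, a log2 fold change of -1.12 (SE 0.13, adjusted p = 2.54e-06), or -0.77 with total counts alone. DTEC was above WT by 0.65 (SE 0.13, adjusted p = 0.000629) and above DTC by 1.78 (SE 0.13, adjusted p = 7.91e-08). In KO the difference was -0.02 (SE 0.13, adjusted p = 0.948). Relative to EGFR per length, ERRFI1 did not separate DTC from WT (a log2 difference of 0.22, groups overlapping) but was higher by 1.20 in DTEC and by 0.35 in KO, without overlap in either. At 7 days, then, ERRFI1 and EGFR were lower together, and at 28 days they lay on opposite sides of their WT levels. ERRFI1 shares 155 exon bases with the antisense gene AL034417.4, which stayed under 1 CPM.

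LRIG3 (ENSG00000139263, chromosome 12, 58872149 to 58920522, minus strand) fell with EGFR. Its level was 17.5, 17.3 and 16.3 CPM in WT, 7.03, 4.36 and 6.01 in DTC, 11.8, 12.7 and 10.8 in DTEC, and 16.4, 17.6 and 16.5 in KO. DTC was lowest, DTEC intermediate without overlap, and KO overlapped WT. In DTC the log2 fold change was -1.56 (SE 0.15, adjusted p = 3.72e-07), or -1.20 with total counts alone. It was -0.54 at 28 days (SE 0.14, adjusted p = 0.00558), and DTEC exceeded DTC by 1.02 (SE 0.15, adjusted p = 4.73e-05). In KO it was -0.02 (SE 0.14, adjusted p = 0.969). The LRIG3 to EGFR ratio overlapped between WT, DTC and DTEC, and was above WT by 0.36 in KO, without overlap.

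LRIG1 (ENSG00000144749, chromosome 3, 66378797 to 66501263, minus strand) went the other way from a very low level. WT libraries held 7, 11 and 11 counts (0.209, 0.371 and 0.317 CPM), DTC libraries 51, 24 and 63 (1.72, 0.706 and 1.85 CPM), DTEC libraries 26, 45 and 82 (0.792, 1.72 and 2.25 CPM) and KO libraries 15, 32 and 26 (0.526, 1.04 and 0.719 CPM). WT was below all other libraries, and the other groups overlapped. In DTC the log2 fold change was 2.24 (SE 0.49, adjusted p = 0.000947), and at 28 days it was 2.40 (SE 0.49, adjusted p = 0.000857). DTEC and DTC differed by 0.16 (SE 0.42, adjusted p = 0.769), and KO by 1.34 from WT (SE 0.50, adjusted p = 0.175), neither called. Since LRIG1 passed the low-count filter through the groups where it lay above WT, its adjusted p-values against WT are descriptive only. LRIG1 shares 907 exon bases with SLC25A26 on the opposite strand, which lay at 19.4 to 22.8 CPM in WT and 13.7 to 17.0 in DTC, so reads assigned to the wrong strand would weigh heavily on counts this low. The part of such reads was not tested, and SLC25A26 was lower in DTC (-0.45, adjusted p = 0.00438) where LRIG1 was higher.

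The related ubiquitin ligases CBL and CBLB moved in opposite directions at 7 days. CBL (ENSG00000110395, chromosome 11, 119206276 to 119313926, plus strand) was at 78.8, 88.5 and 89.3 CPM in WT, 55.7, 31.8 and 28.97 in DTC, 93.5, 83.0 and 62.5 in DTEC, and 74.4, 63.8 and 65.0 in KO. On this scale DTC was below every other library, with DTC replicate 1 nearest to the rest, and DTEC overlapped WT. By total counts alone DTC replicate 1 was not below every DTEC and KO library. The log2 fold change of CBL was -1.14 in DTC (SE 0.21, adjusted p = 0.000326), or -0.79 with total counts alone. In DTEC against DTC it was 1.04 (SE 0.21, adjusted p = 0.00102). It was not called in DTEC against WT (-0.10, SE 0.21, adjusted p = 0.703) or in KO (-0.34, SE 0.21, adjusted p = 0.456). CBL shares 509 exon bases with MCAM on the opposite strand, and MCAM was higher in DTC by 2.95 (adjusted p = 2.17e-08), the reverse of CBL.

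CBLB (ENSG00000114423, chromosome 3, 105655461 to 105869552, minus strand) was at 15.6, 15.7 and 16.4 CPM in WT, 93.3, 61.3 and 65.3 in DTC, 35.4, 37.6 and 34.4 in DTEC, and 13.8, 14.5 and 13.0 in KO. The groups did not overlap, with KO just under WT, DTEC above both and DTC highest. DTC was 4.61-fold above WT, a log2 fold change of 2.20 (SE 0.14, adjusted p = 7.99e-09). DTEC was above WT by 1.17 (SE 0.14, adjusted p = 8.66e-06) and below DTC, at -1.03 (SE 0.14, adjusted p = 1.94e-05), the only one of the 8 tested genes to fall between these times. In KO the difference was -0.21 (SE 0.14, adjusted p = 0.491). Per length, the ratio of CBLB to CBL was 0.178 for WT, 1.85 for DTC, 0.435 for DTEC and 0.195 for KO (geometric means). CBLB thus exceeded CBL in each of the DTC libraries, with ratios of 1.60, 1.84 and 2.16, and in no library of the other groups.

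**Figure D3:**
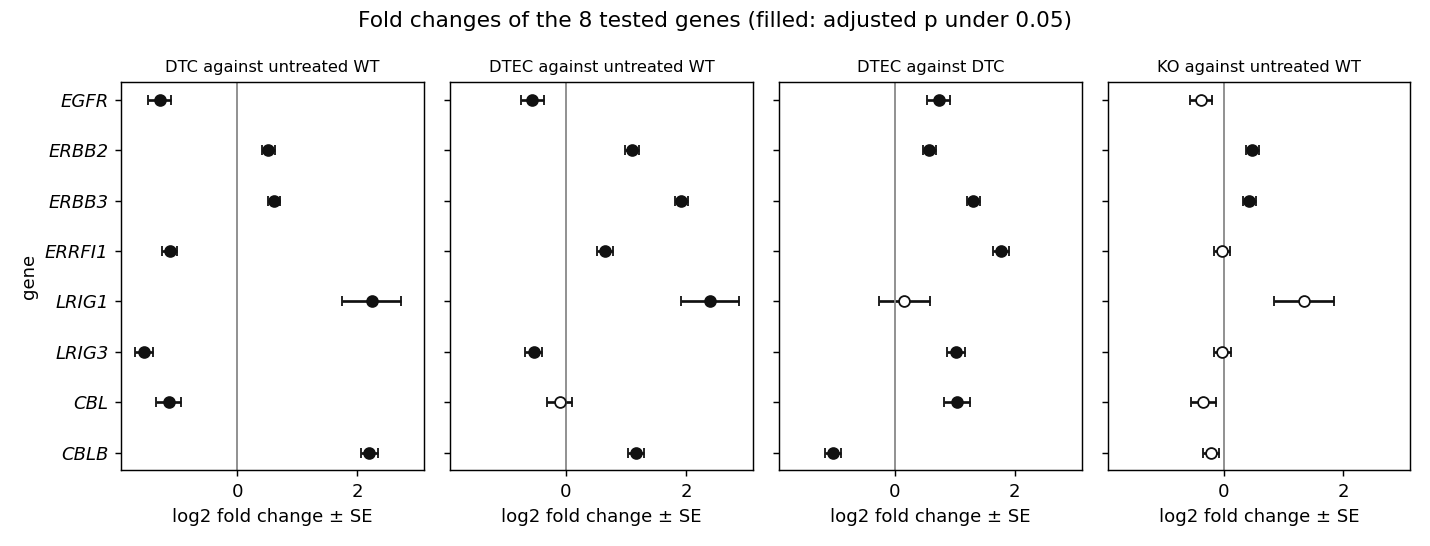
Log2 fold change with its SE (edgeR) for the 8 tested genes in each of the 4 comparisons, on a shared axis. Filled points had an adjusted p under 0.05, EGFR, ERRFI1, LRIG3, CBL and CBLB lie on different sides of 0 in the DTC and DTEC against DTC panels, and only ERBB2 and ERBB3 are filled in KO.

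**Figure D4:**
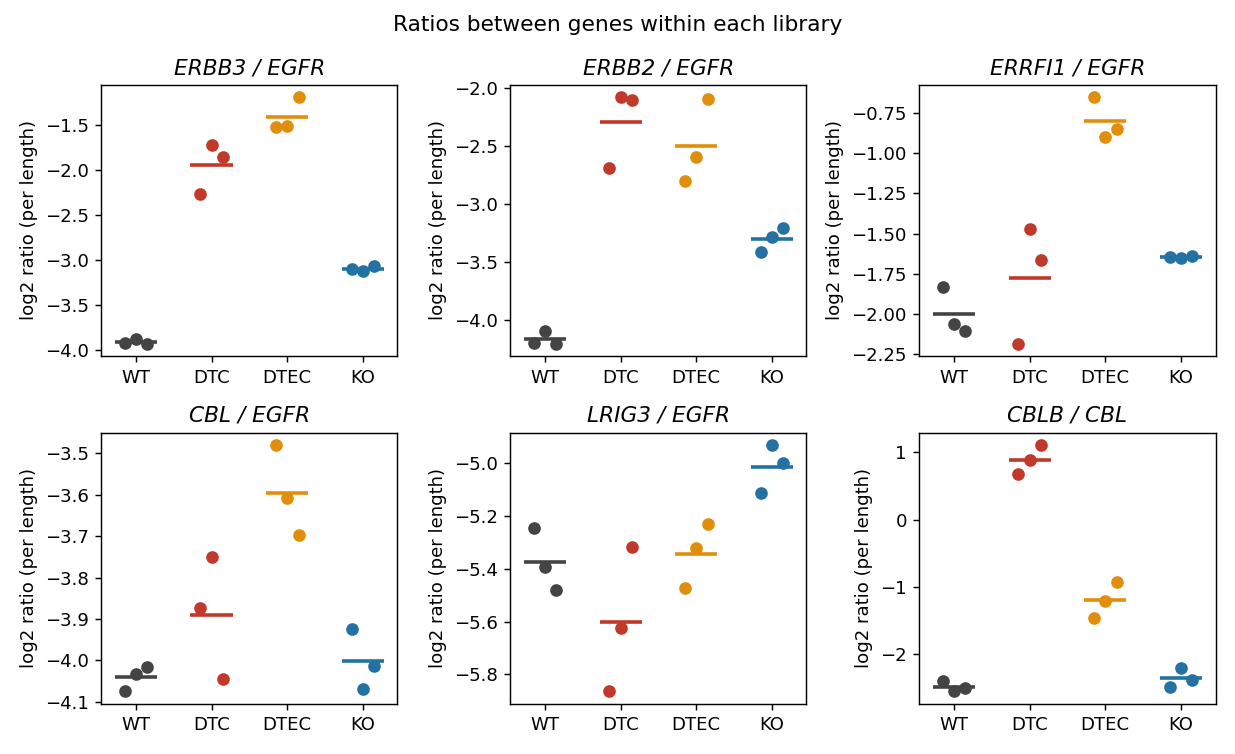
Log2 ratio between pairs of the genes within each library, per kilobase of merged exons, with a line at each group mean (axes differ between panels and do not start at 0). ERBB3 to EGFR rises from WT through KO and DTC to DTEC, and CBLB to CBL is above 0 only in DTC.

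Levels of different genes can be ranked only per length. On the CPM per kilobase scale the WT order of group means was EGFR (119.9), ERRFI1 (29.97), ERBB3 (8.01), CBL (7.29), ERBB2 (6.71), LRIG3 (2.89), CBLB (1.297), LRIG1 (0.0425) and ERBB4 (0.0025). The libraries of ERBB3 and CBL overlapped, as did those of CBL and ERBB2, and the other neighbours did not. In DTC the order was EGFR (48.9), ERRFI1 (13.7), ERBB3 (12.3), ERBB2 (9.62), CBLB (5.97), CBL (3.31), LRIG3 (0.984), LRIG1 (0.203) and ERBB4 (0.0032), and of the neighbours only ERRFI1 and ERBB3 overlapped. In DTEC it was EGFR (81.4), ERRFI1 (47.0), ERBB3 (30.4), ERBB2 (14.4), CBL (6.79), CBLB (2.92), LRIG3 (1.996), LRIG1 (0.226) and ERBB4 (0.0036), with no overlap between neighbours. KO kept the WT order except that ERBB2 (9.37) stood above CBL (5.77), without overlap. The order in DTEC was the same with the merged exons, the longest transcript and the coding length, and in the other groups it depended on the length used. Since with the longest transcript ERBB2 took more of the receptor sum than ERBB3 in WT (7.84 against 6.83%), DTC (20.4 against 18.9%) and KO (12.8 against 10.7%), the order of these receptors is not settled there. With the longest transcript ERBB2 (14.1) and ERBB3 (12.2) were well above CBL (7.62) in WT, and ERRFI1 (18.5) was below ERBB2 (20.1) and ERBB3 (18.7) in DTC. With coding length CBL (29.7) stood above ERBB2 (17.5) and ERBB3 (16.6) in WT, CBLB (5.10) above LRIG3 (4.80) in WT, and CBL (23.5) between ERBB2 (24.5) and ERBB3 (22.5) in KO.

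The pattern of each gene over the 12 libraries was compared by the root mean square difference of centred log2 CPM, where 0 is an identical pattern. Of the pairs among the 8 tested genes, EGFR and CBL were closest at 0.19, followed by EGFR and LRIG3 at 0.25, and LRIG3 and CBLB were farthest apart at 1.59. Among 9793 genes with a mean of at least 10 CPM, those most like EGFR included LRRC58 (0.10) and PDCD11 (0.10). Those most like ERBB3 were CD22 (0.14), ALDH6A1 (0.14) and ALDOC (0.15). For ERRFI1 they were GCLC (0.10), EPB41 (0.12) and SP1 (0.14), each lower in DTC and higher in DTEC. These distances describe 12 libraries that share their groups and depth, and carry no test.

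The other genes of the pathway were read from 4 lists. Of all tested genes, 34.0% were called higher and 33.3% lower in DTC, 26.0 and 26.3% in DTEC, and 28.8 and 26.6% in DTEC against DTC. In KO the shares were 2.76 and 1.55%. With so many genes called under the drug, the counts called in the lists are not read as a result about the lists. Of 11 ERBB ligands 9 were tested, with 3 called higher and 3 lower in DTC, 2 and 4 in DTEC, 4 and 4 in DTEC against DTC, and 0 and 3 in KO. Their median log2 fold change was -0.06, -0.83, -0.62 and -0.71 in these comparisons, beside 0.06, 0.02, -0.01 and -0.01 over all genes. HBEGF, a membrane-tethered ligand of EGFR and ERBB4, was called lower in DTC (-1.45, adjusted p = 8.48e-08), DTEC (-0.88, adjusted p = 2.37e-05) and KO (-0.96, adjusted p = 0.000325). EREG, another EGFR ligand, was at 9.0 ± 0.34 CPM in WT, 2.30 ± 0.39 at 7 days and 8.10 ± 0.21 at 28 days. EGF was low but higher under the drug, at 1.09 ± 0.09 CPM in WT, 3.44 ± 0.97 in DTC and 5.23 ± 0.91 in DTEC. TGFA was at 168 ± 27.3 CPM in DTC and 55.6 ± 3.74 in DTEC (-1.59, adjusted p = 6.07e-08). In KO the ligands called lower were HBEGF, AREG (-0.89, adjusted p = 0.0351) and EREG (-0.79, adjusted p = 0.0388). Leaving out any 1 of the 6 libraries in turn, HBEGF was called in 6 of 6 cases, AREG in 0 (adjusted p up to 0.16) and EREG in 1, without KO replicate 1 (up to 0.166).

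All 20 receptor-proximal adaptors and effectors were tested. Called higher and lower were 5 and 7 in DTC, 5 and 3 in DTEC, 12 and 4 in DTEC against DTC, and 0 and 1 in KO. Their median log2 fold change was -0.03, 0.03, 0.32 and -0.0024. Over all genes, 67.3, 52.3, 55.4 and 4.31% were called in either direction in these comparisons. GAB2, a docking protein that carries PI3K and SHP2 to receptors, was at 18.3 ± 0.42 CPM in WT, 71.5 ± 5.50 at 7 days and 31.7 ± 2.47 at 28 days. SOS2, a RAS activator, was higher by 1.75 in DTC and 1.76 in DTEC (adjusted p = 2.76e-07 and 7.76e-07). In DTEC the adaptor GRB7 was higher by 1.498 (adjusted p = 1.52e-07) and the docking protein GAB1 by 1.41 (adjusted p = 5.07e-06). PIK3R3, a PI3K regulatory subunit, fell in DTC, at -1.23 (adjusted p = 3.02e-06). GRB7 neighbours ERBB2 on chromosome 17 and changed by 0.03 in DTC (adjusted p = 0.823), where ERBB2 was already higher. The gene called in KO was GAB2 (-0.36, adjusted p = 0.0493), a call that was lost with RLE, upper quartile or total-count scaling, without the low-count filter, and without any 1 of the 6 libraries (adjusted p up to 0.22).

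All 25 genes of receptor endocytosis and ubiquitin tagging were tested. Called higher and lower were 3 and 12 in DTC, 6 and 10 in DTEC, 10 and 2 in DTEC against DTC, and 0 and 2 in KO. Their median log2 fold change was -0.34, -0.16, 0.17 and -0.03. The share of all genes called in either direction was 67.3, 52.3, 55.4 and 4.31% in these comparisons. The DTC split turned to 10 higher and 4 lower with total counts alone and to 8 and 6 with upper quartile scaling, so the direction of this list rests on the scaling. Single libraries also moved these counts: the 6 higher in DTEC became 3 without DTEC replicate 1 or WT replicate 2, the 10 lower in DTEC became 6 without DTEC replicate 2, and the 2 lower in DTEC against DTC became 4 without DTC replicate 1. UBASH3B, a phosphatase-like protein that binds CBL, was at 311 ± 4.05 CPM in WT, 88.2 ± 25.8 at 7 days and 222 ± 20.4 at 28 days (-1.82 in DTC, adjusted p = 1.52e-07). EPS15L1, an endocytic adaptor, fell in DTC, at -0.91 (adjusted p = 2.83e-06). NEDD4L, a ubiquitin ligase, was lower in DTEC (-0.90, adjusted p = 0.000159) and in KO (-0.87, adjusted p = 0.00403), and SH3KBP1, which links CBL to the endocytic machinery, was lower in KO (-0.62, adjusted p = 0.032). Without any 1 of the 6 libraries NEDD4L was still called in KO and SH3KBP1 was not (adjusted p up to 0.151). CBLC, the epithelial relative of CBL and CBLB, was higher in DTEC than in DTC by 0.71 (adjusted p = 0.00144), as was the ligase NEDD4 by 0.66 (adjusted p = 0.00296). RNF126, a ubiquitin ligase, was called lower in DTC (-1.21) and DTEC (-1.38), with a wide spread in WT (58.6 ± 19.9 CPM), and EPN1, an endocytic adaptor, was called lower in DTEC (-0.89) although its libraries overlapped those of WT.

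All 13 other inhibitors and phosphatases were tested. Called higher and lower were 4 and 6 in DTC, 2 and 1 in DTEC, 6 and 1 in DTEC against DTC, and 0 and 0 in KO, and their median log2 fold change was -0.14, 0.01, 0.16 and 0.04. Beside these counts, 67.3, 52.3, 55.4 and 4.31% of all genes were called in either direction. The 4 higher in DTC became 2 without WT replicate 2, and without DTEC replicate 3 the 2 higher in DTEC became 4 and the 1 lower in DTEC against DTC became 2. With the compared libraries alone, 5 were higher in DTEC. PTPN12, a phosphatase with ERBB receptors among its substrates, was at 207 ± 11.9 CPM in WT, 80.9 ± 16.5 at 7 days and 185 ± 37.2 at 28 days. PTPN6, which encodes the phosphatase SHP1, was higher by 1.14 in DTC and 1.01 in DTEC (adjusted p = 2.21e-07 and 1.91e-06). SOCS5, a suppressor of cytokine signalling, fell, at -1.12 in DTC and -0.62 in DTEC (adjusted p = 2.71e-06 and 0.000925). PTPRG, PTPRF and PTPRK are receptor-type phosphatases. From DTC to DTEC, PTPRG was higher by 1.31 (adjusted p = 0.000268) and PTPRF by 0.61 (adjusted p = 0.000521), and PTPRK was higher in DTEC than in WT by 0.66 (adjusted p = 0.00201). Scaling by total counts shifted the all-gene median by 0.35 in DTC, 0.17 in DTEC and -0.19 in DTEC against DTC. Higher genes then made up 68.4% of the DTC calls in place of 50.5%, 63.7% of the DTEC calls in place of 49.7%, 37.4% in DTEC against DTC in place of 51.9%, and 78.8% in KO in place of 64.1%. Under that scaling the adaptors were 9 higher and 3 lower in DTC, 8 and 3 in DTEC, and 7 and 5 in DTEC against DTC. The endocytosis list was 10 and 6 in DTEC and 5 and 7 in DTEC against DTC, and the phosphatases were 6 and 4, 5 and 1, and 3 and 2 in these 3 comparisons. None of the 8 tested ERBB receptor and inhibitor genes changed its direction in DTC under any of the scalings.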

How the data were processed

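PolyA RNA of 12 PC9 cultures was sequenced as 101 bp read pairs. The deposited values are expected counts per gene, estimated read counts with no scaling for depth. The submitters' processing notes name RSEM 1.3.1, Bowtie2 2.5.2, DESeq2 1.40.2 and GRCh38, and the annotation release is not given in the sources used here. RSEM shares reads that fit several genes among them, which can blur overlapping genes. Kit strandedness is stated in the labels, but how strand was used in counting is not given.

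Expected counts were rounded and fitted in R 4.3.3 with edgeR 4.0.16 (filterByExpr by group, TMM, robust quasi-likelihood F tests, 1 mean per group, all 12 libraries), which tested 17115 genes. P-values were adjusted by Benjamini-Hochberg over these, and genes were called under 0.05. The procedure was tested on simulated data in which few genes differed, so that test does not bear on the choice of scaling here. DESeq2 1.42.0 served as an alternative. Of the 62754 identifiers, 62700 (99.9%) had a symbol, and coordinates and exon lengths come from GENCODE 29. The 3 columns of each group were matched by the labels, and 0 columns belonged to other samples. Shares and ratios were tested by exact permutation of libraries. The replicate numbers were not treated as pairs.

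The 9 genes and all lists were chosen with earlier results of these data known. The text names all 9 genes, TDP1, up to 3 called genes per list and comparison with the largest change at a mean of at least 1 CPM, and the 3 genes most like EGFR, ERBB3 and ERRFI1, of which 1 is not reported here. Alternatives were RLE, upper quartile and total-count scaling, no low-count filter, DESeq2, the compared libraries alone, a replicate block, other gene lengths, and leaving out each library.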

Additional observations from a re-analysis of the deposited data

Results flagged for a closer look

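For 7 of the 8 tested genes the level differed between DTEC and DTC in the direct comparison (edgeR, adjusted p under 0.05). This is why they are listed here, and 55.4% of all tested genes met the same condition. The log2 difference of DTEC minus DTC was 0.73 for EGFR. It was 0.58 for ERBB2. It was 1.31 for ERBB3. For ERRFI1, which lay below WT in DTC and above it in DTEC, it was 1.78. LRIG3 differed by 1.02. CBL differed by 1.04. CBLB differed by -1.03, the reverse sign of the other 6.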

How the results depend on the processing

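In DTC against untreated WT, the 8 calls kept direction and side of the threshold under all 13 alternatives. Of 104 gene values in DTEC against WT, 96 kept both, 5 lost the call (all EGFR) and 3 reversed (all CBL, never called). In DTEC against DTC 100 of 104 kept both and 4 reversed (all LRIG1, never called). In KO 76 of 104 kept both, 12 lost the call, 4 gained one and 12 reversed. The number called in KO, 2 by edgeR and by DESeq2, was 5 with the compared libraries alone (CBL, EGFR, ERBB2, ERBB3 and LRIG1), and 0 to 0 without any 1 of the 6 libraries, when 2 to 3 genes had an unadjusted p under 0.05. The causes were not tested. The log2 fold change of CBL in DTEC against WT was 0.0647 when scaled by total counts, 0.0106 by the upper quartile and -0.218 to 0.0368 leaving out 1 library. LRIG1 in DTEC against DTC was -0.0278, -0.00904 and -0.235 to 0.472 in the same order. In KO, ERRFI1 was 9.06e-05 with the compared libraries alone, 0.0451 by total counts and -0.0352 to 0.0349 leaving out 1 library. LRIG3 in KO was 0.00617 with the compared libraries alone, 0.00591 without the filter, 0.0506 by total counts, 0.00447 by the upper quartile and -0.0479 to 0.0219 leaving out 1 library. The EGFR share of the receptor sum in WT, DTC, DTEC and KO was 85.3, 60.7, 57.4 and 76.5% with the longest transcript and 91.6, 74.2, 71.3 and 85.9% with coding length. Of 416 counts over the pathway lists, 353 stayed within 1.5 times. ERBB4 gave no value except without the filter, and low counts limit it and LRIG1.

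Same-number cultures were at most weakly alike, and whether the replicate numbers pair them was not settled. Of 18 same-number pairs 4 correlated over 0.1 (range -0.03 to 0.179, against -0.187 to 0.118 for different numbers). Of the 12 libraries, 5 matched their own number best in every other group. With a replicate block the counts of called genes were 8, 7, 7 and 2, in DTC, DTEC, DTEC against DTC and KO.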

Other observations

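The nearest tested protein-coding genes of the receptors, 3 on each side by gene midpoint, were read after the receptor values had been seen and were chosen by position alone. Around EGFR on chromosome 7, 4 of 6 were called lower and 1 higher in DTC (edgeR, adjusted p under 0.05), where 33.3% of all genes were called lower. Of those lower in DTC, COBL ends at 51316818 and GRB10 at 50793462, while EGFR starts at 55019021. These lowered genes are therefore not close to EGFR. The counts were 4 and 1 in DTEC too, against 26.3% of all genes called lower, with COBL, LANCL2 and VOPP1 lower at both times and the rest differing. LANCL2 and VOPP1, the next 2 genes on the higher-coordinate side, changed by -0.81 and -0.34 in DTC and by -1.003 and -0.52 in DTEC. Their differences between DTEC and DTC, -0.19 and -0.18, were not called (adjusted p = 0.0852 and 0.132). SEC61G on the other side was higher by 0.59 in DTC and lower in DTEC, at -0.54 (adjusted p = 0.0247), with -1.13 in DTEC against DTC (adjusted p = 0.000162). GRB10 was lower in DTC (-1.34, adjusted p = 2.12e-07) and not called in DTEC (0.18, adjusted p = 0.208), while SEPTIN14, at 0.417 CPM in WT, was the one called higher in DTEC.

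Around ERBB2 on chromosome 17, 4 of 6 were called higher in DTC, 2 in DTEC and 1 in KO, and none was called lower in these comparisons, where 34.0, 26.0 and 2.76% of all genes were called higher. PGAP3, which overlaps ERBB2 on the opposite strand, was called in each, at 0.88, 1.09 and 0.56 (adjusted p = 6.6e-05, 1.79e-05 and 0.0368). The other gene called in DTEC was GRB7, and those in DTC were MIEN1, at the threshold (0.54, adjusted p = 0.04998), and TCAP and IKZF3, both under 1 CPM in WT. STARD3 changed by 0.07, -0.09 and 0.22 in DTC, DTEC and KO, none called.

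Around ERBB3 on chromosome 12, 1 of 6 was called higher and 4 lower in DTC, 1 and 3 in DTEC, 5 and 0 in DTEC against DTC, and none in KO. Of all genes, 34.0% were called higher and 33.3% lower in DTC, 26.0 and 26.3% in DTEC, and 28.8 and 26.6% in DTEC against DTC. In KO 4.31% were called. AC034102.2 and PA2G4, both among the 6, overlap each other in position and are not separate neighbours. PA2G4, which encodes an ERBB3-binding protein, was below WT where ERBB3 was above it, at -2.11 in DTC (adjusted p = 8.75e-10) and -1.19 in DTEC (adjusted p = 4.82e-07). Between DTC and DTEC it rose by 0.92 (adjusted p = 4.62e-06), the same direction as ERBB3.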
